A study of Caenorhabditis elegans with 9 samples.

Results

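The 10 genes described here build or use the meiotic chromosome axis and the synaptonemal complex of Caenorhabditis elegans: him-3, htp-1, htp-3 and rec-8 of the axis, syp-1, syp-2 and syp-3 of the synaptonemal complex, him-8 of chromosome pairing, and spo-11 and msh-5 of recombination. They were chosen by name for their known roles and are 10 of the 43898 loci in the expression table. RNA of whole young adults was sequenced in 9 libraries, 3 of wild type (strain N2), 2 of the deletion mutant emr-1(gk119) (strain BN20), 2 of the deletion mutant lem-2(tm1582) (strain BN19) and 2 of BN19 animals fed bacteria that express double-stranded RNA of emr-1, their label being emr-1(RNAi) lem-2(tm1582) and their name below the double libraries. EMR-1 (emerin) and LEM-2 are proteins of the inner nuclear membrane, and the comparison asked how loss of either or of both alters transcript levels. Animals were grown from synchronized first-stage larvae for 53 h at 20 °C on RNAi bacteria, and which bacteria the single mutants and wild type ate is not spelled out in the sources used here. The label of the double libraries gives BN19, as does the account of the RNAi, whereas the list of sequenced strains in the study's methods has BN24 in their place, so their strain is not settled.

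In meiotic prophase each chromosome folds into loops along a protein axis made of cohesin and of HORMA-domain proteins, homologous chromosomes pair, and the synaptonemal complex then joins the axes of the partners along their length. Programmed double-strand breaks are made by SPO-11, and some of them are matured into the crossovers that hold homologs together until the first division. All of this takes place in the germ line, so in whole animals a level of these transcripts reflects both how many germ cells are present and how much RNA each holds, and the 2 cannot be told apart here.

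The values are normalized coverage per base, given per transcript as a median over its exons, and were compared between libraries. Between genes they give only a rough order, since transcripts of 1 locus can differ widely and were averaged. For rec-8 in wild type, W02A2.6a had 25.3 to 34.8 and W02A2.6c had 108 to 126. Number of reads per library is unknown from this table, so precision was judged from the spread between libraries. Nothing in the labels says that replicates came from separate cultures, and p-values measure only the spread between these libraries. With 3 libraries against 2 an exact rank-sum test of a single value gives no two-sided p under 0.2, and with 2 against 2 none under 0.333. Tests were therefore made with limma across the 19564 loci whose mean coverage reached 1, on log2(coverage + 1). All 10 genes passed this minimum. A gene was called at an adjusted p under 0.05 (two-sided, Benjamini-Hochberg over all loci tested), and comparisons with wild type share the same 3 control libraries.

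Coverage of the targeted genes was read first. Coverage of emr-1 was 52.1, 44.6 and 60.5 in wild type, 0 and 1.50 in emr-1(gk119) worms, 44.5 and 44.4 in lem-2(tm1582) worms, and 134.8 and 73.5 in the double libraries. It was thus near 0 in the deletion mutant and not lower in the libraries labelled as RNAi, whose food carried emr-1 sequence, and the part of the fed RNA in these values was not tested. Coverage of lem-2 was 29.3 to 39.0 in wild type, 53.3 to 54.0 in lem-2(tm1582) and 28.9 to 30.5 in the double libraries. Neither target thus gives, in coverage, a measure of the genotype in the lem-2(tm1582) and double groups. The emr-1 deletion libraries had a lem-2 coverage of 16.1 and 23.8, under every wild-type library. By limma this was a called fall of -0.73 ± 0.20 on the log2 scale, close to the threshold (Benjamini-Hochberg adjusted p = 0.0481). The study judged the RNAi by the death of embryos, which was not analysed here. All directions given below for the libraries labelled lem-2(tm1582) or double carry this limit. The median absolute log2 difference between replicates was 0.20 to 0.31 for wild type, 0.38 for emr-1(gk119), 0.18 for lem-2(tm1582) and 0.21 for the double libraries over the 8110 loci whose mean coverage reached 20.

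In wild type the coverage of the 10 genes spanned about an order of magnitude, with rec-8 and him-8 averaged over transcripts. The order between genes is therefore rough. The mean coverage was 120 ± 43.9 (SD, n = 3) for htp-1, 78.9 ± 4.42 for him-3, 74.0 ± 15.5 for syp-2, 70.9 ± 4.36 for rec-8 and 62.8 ± 14.5 for spo-11. Each of these neighbours in the order overlapped the next, so their order is not resolved. Below them him-8 had 48.6 ± 2.41, htp-3 37.5 ± 4.39, syp-1 37.2 ± 5.85, syp-3 29.6 ± 6.23 and msh-5 13.6 ± 3.63. Among these, the libraries of him-8 lay above those of htp-3 and the libraries of syp-3 above those of msh-5 without overlap, whereas htp-3, syp-1 and syp-3 overlapped their neighbours. The step from spo-11 to him-8 was narrow, with a lowest spo-11 library at 50.9 and a highest him-8 library at 50.7.

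**Figure D1:**
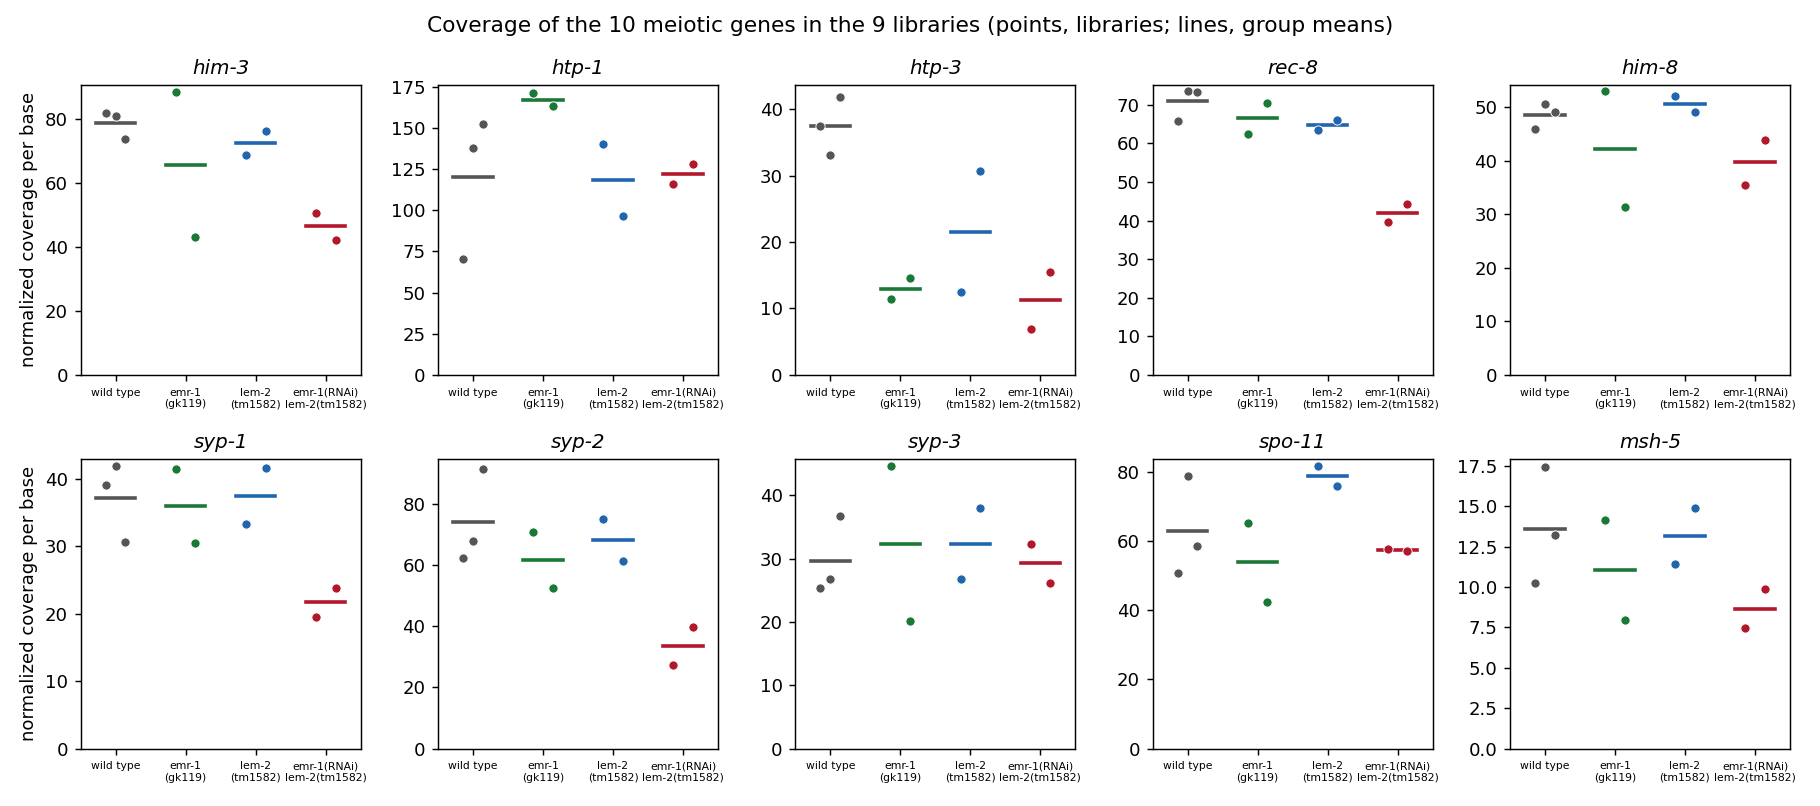
Normalized coverage per base (vertical axes, linear from 0) of the 10 meiotic genes in the 9 libraries, by genotype (horizontal axes). Points are libraries and lines are group means. The double points of him-3, htp-3, syp-1, syp-2, rec-8, msh-5 and him-8 all lie under those of wild type. Those of htp-1, syp-3 and spo-11 overlap wild type.

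Against wild type, 4 of the 10 genes were lower in the double libraries (htp-3, syp-1, syp-2 and rec-8) and 0 were higher. Of all loci tested, 12.0% were called lower and 26.4% higher in this comparison. The median log2 change of the 10 genes was -0.66, beside 0.35 over all loci. In 7 of the 10 both double libraries lay below all 3 wild-type libraries, which was so for 19.2% of all loci, and in none did both lie above, which was so for 41.8%. Without double replicate 1, 1 of the 10 (rec-8) was called, and without a coverage minimum 2 (syp-2 and rec-8), whereas with quantile normalization repeated on loci 6 were called, him-3 and msh-5 added. The direction of all loci depends on the scale: with quantile normalization repeated on loci the median over all loci became -0.03, with 3182 loci called higher and 3511 lower in place of 5164 and 2353, and the median of the 10 genes became -0.93.

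**Figure D2:**
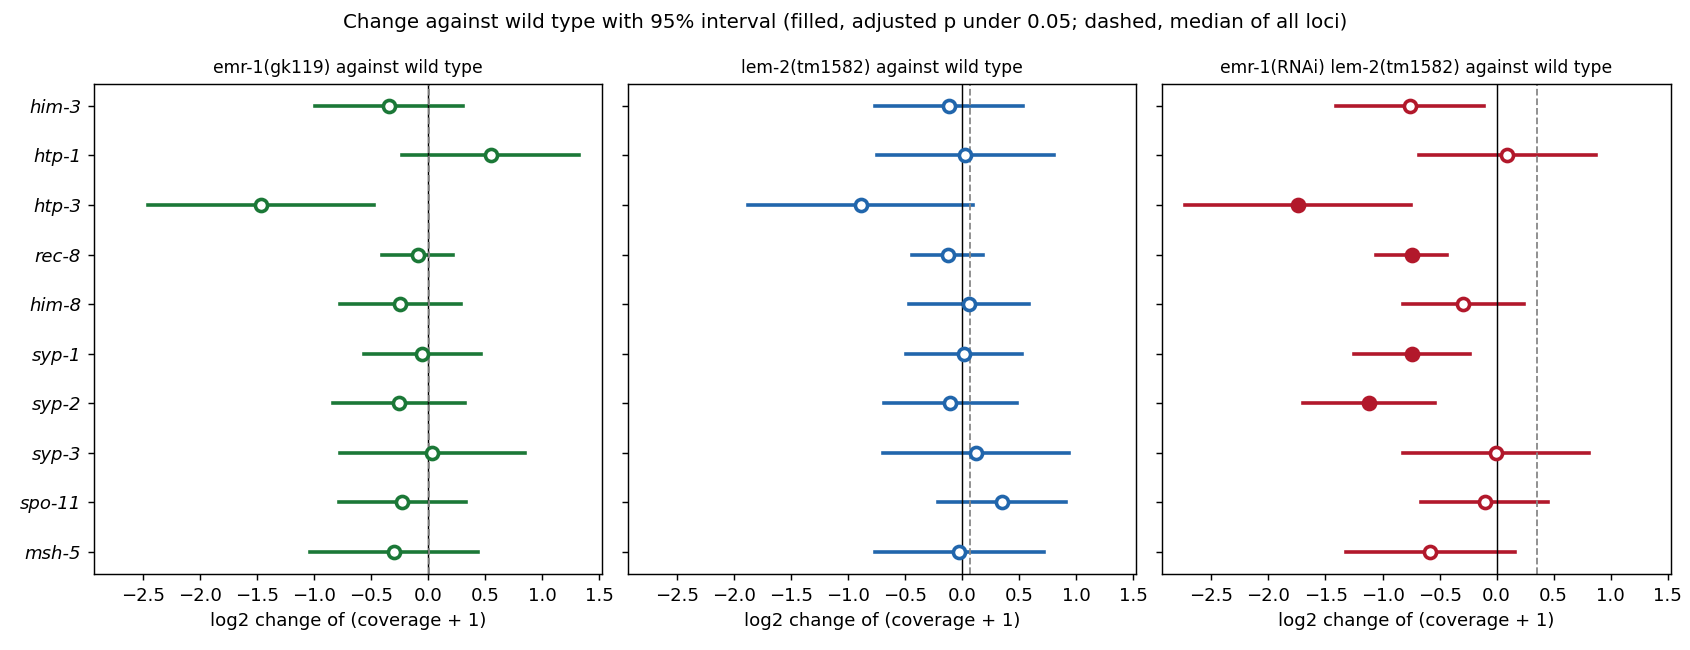
Change of log2(coverage + 1) against wild type (horizontal axes) for each gene, 1 panel per mutant group, with 95% intervals from limma. Filled points have an adjusted p under 0.05 and dashed lines are the median of all loci. Filled points are present only in the double panel, where htp-3 stands at -1.74, syp-2 at -1.12 and both syp-1 and rec-8 at -0.74.

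Of the axis proteins, HTP-3 recruits the other HORMA-domain proteins to the chromosome and is also needed for double-strand breaks. Its gene, F57C9.5, has 9 exons and lies on the plus strand of chromosome I (4827072 to 4829791, build WBcel235). Coverage was 37.5, 33.1 and 41.9 in wild type, 11.4 and 14.5 in emr-1(gk119) worms, 12.5 and 30.6 in lem-2(tm1582) worms, and 6.94 and 15.5 in the double libraries. Every mutant library was below every wild-type library, and htp-3 was the sole member of the 10 of which this holds in all 3 groups. By limma the log2 change was -1.74 ± 0.42 (SE) in the double libraries (Benjamini-Hochberg adjusted p = 0.0158), which left 30.0% of the wild-type mean. In emr-1(gk119) it was -1.47 ± 0.42 and missed the threshold (limma, Benjamini-Hochberg adjusted p = 0.0541), with 34.6% of the wild-type mean. In lem-2(tm1582) it was -0.89 ± 0.42 (limma, Benjamini-Hochberg adjusted p = 0.369), and the 2 libraries of that group were far apart. Over 19 alternative settings the emr-1(gk119) change passed the threshold in 7, with adjusted p from 0.0267 to 0.198. The double call was lost without double replicate 1 (limma, Benjamini-Hochberg adjusted p = 0.125) and without a coverage minimum (0.0694).

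HIM-3 is a HORMA-domain protein that HTP-3 recruits and that synapsis requires. Its gene, ZK381.1, lies on the plus strand of chromosome IV at 6977508 to 6978765 and overlaps prkl-1 on the other strand by 24 bases. Coverage was 81.8, 80.9 and 73.8 in wild type, 88.3 and 43.1 in emr-1(gk119) worms, 68.8 and 76.1 in lem-2(tm1582) worms, and 50.5 and 42.3 in the double libraries. The double libraries were lower than all wild-type and both lem-2(tm1582) libraries, and emr-1(gk119) replicate 2 was as low as they were. The log2 change in the double libraries was -0.76 ± 0.28 and was not called (limma, Benjamini-Hochberg adjusted p = 0.0661). It was called in 6 of 19 alternative settings, among them both rescalings, with adjusted p from 0.00686 to 0.265. In emr-1(gk119) the change was -0.35 ± 0.28 (limma, Benjamini-Hochberg adjusted p = 0.441) over replicates that differ widely.

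HTP-1, another HORMA-domain protein of the axis, guards sister chromatid cohesion and couples pairing to synapsis. Its gene, F41H10.10, lies on the minus strand of chromosome IV at 5390189 to 5391557. Coverage was 70.3, 138 and 153 in wild type, 171 and 163 in emr-1(gk119) worms, 140 and 96.3 in lem-2(tm1582) worms, and 116 and 128 in the double libraries. The emr-1(gk119) libraries were above all of wild type, the others lay within its range, and wild-type replicate 1 was the lowest of all 9. No change was called: 0.09 ± 0.33 in the double libraries (limma, Benjamini-Hochberg adjusted p = 0.846) and 0.55 ± 0.33 in emr-1(gk119) (0.301). The 95% interval of the double change runs from -0.68 to 0.87, so a fall of the size seen for syp-1 lies just outside it. htp-1 has a near-identical paralog, htp-2, and how reads shared by the pair were placed is not stated, so both are uncertain. Wild-type libraries had an htp-2 coverage of 89.7, 93.3 and 95.6 and the double libraries of 59.1 and 38.6, a called fall by limma of -0.95 ± 0.23 on the log2 scale (Benjamini-Hochberg adjusted p = 0.0159). Per library, htp-1 had 0.784 to 1.60 times the coverage of htp-2 in wild type and 1.96 and 3.32 times in the double libraries.

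The ratio of 2 genes within a library does not change when that library is scaled by a single factor. These values were quantile-normalized, which is not a single factor, so the ratios can still depend on the normalization. For htp-3 to htp-1 it was 0.533, 0.240 and 0.275 in wild type, 0.067 and 0.089 in emr-1(gk119) worms, 0.089 and 0.318 in lem-2(tm1582) worms, and 0.060 and 0.121 in the double libraries. The emr-1(gk119) and double libraries were below all of wild type, and of lem-2(tm1582) 1 library was below wild type and the other within its range. In these values the proportion of the 2 axis genes thus differed from wild type in the emr-1(gk119) and double libraries. It does not show which of them changed, and htp-1 is uncertain because of reads shared with htp-2.

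REC-8 is a meiosis-specific kleisin of cohesin, the ring that ties sister chromatids together and on which axis proteins load. Its gene, W02A2.6, lies on the minus strand of chromosome IV at 13349122 to 13353193. Coverage was 65.9, 73.4 and 73.4 in wild type, 62.5 and 70.4 in emr-1(gk119) worms, 63.3 and 66.0 in lem-2(tm1582) worms, and 39.6 and 44.4 in the double libraries. The double libraries were below all 7 others, which span a narrow range. How many of all loci have both double libraries below the other 7 was not counted, a limit that also holds for syp-1 and syp-2 below. By limma the log2 change was -0.74 ± 0.13 (Benjamini-Hochberg adjusted p = 0.00516), or 59.2% of the wild-type mean. It was called under all 19 alternative settings, with changes from -0.93 to -0.50 and adjusted p from 0.00281 to 0.0395. Neither single mutant passed, at -0.09 ± 0.13 in emr-1(gk119) (limma, Benjamini-Hochberg adjusted p = 0.684) and -0.13 ± 0.13 in lem-2(tm1582) (0.699).

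The table holds 3 transcripts of rec-8, of 8, 4 and 1 exons, which were averaged above. W02A2.6a had 25.3, 34.8 and 28.3 in wild type and 15.3 and 15.2 in the double libraries. W02A2.6b had 64.5, 61.3 and 65.8 in wild type, 49.1 and 50.9 in emr-1(gk119) worms, 54.6 and 55.1 in lem-2(tm1582) worms, and 24.6 and 29.1 in the double libraries. W02A2.6c, of a single exon, had 108, 124 and 126 in wild type and 78.9 and 88.8 in the double libraries. In each of the 3 the double libraries were below all of wild type, and for W02A2.6b the 4 groups did not overlap one another. For W02A2.6a the emr-1 deletion libraries had 23.0 and 32.6 and those of the lem-2 mutant 37.9 and 25.6. For W02A2.6c the emr-1 deletion libraries had 115 and 128 and those of the lem-2 mutant 97.5 and 117. In both transcripts each single mutant overlapped wild type. How many other transcripts separate all 4 groups was not counted, and the 3 belong to 1 locus, so they are not separate observations. In a fit over 24939 transcripts, of which 13.4% were called lower in the double libraries, all 3 were called lower, W02A2.6a by -0.89 ± 0.24 (limma, Benjamini-Hochberg adjusted p = 0.0224), W02A2.6b by -1.23 ± 0.13 (0.00108) and W02A2.6c by -0.50 ± 0.15 (0.0290). This split by transcript was added after the data were seen. In emr-1(gk119) the change of W02A2.6b was -0.35 ± 0.13 and not called (limma, Benjamini-Hochberg adjusted p = 0.116).

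**Figure D3:**
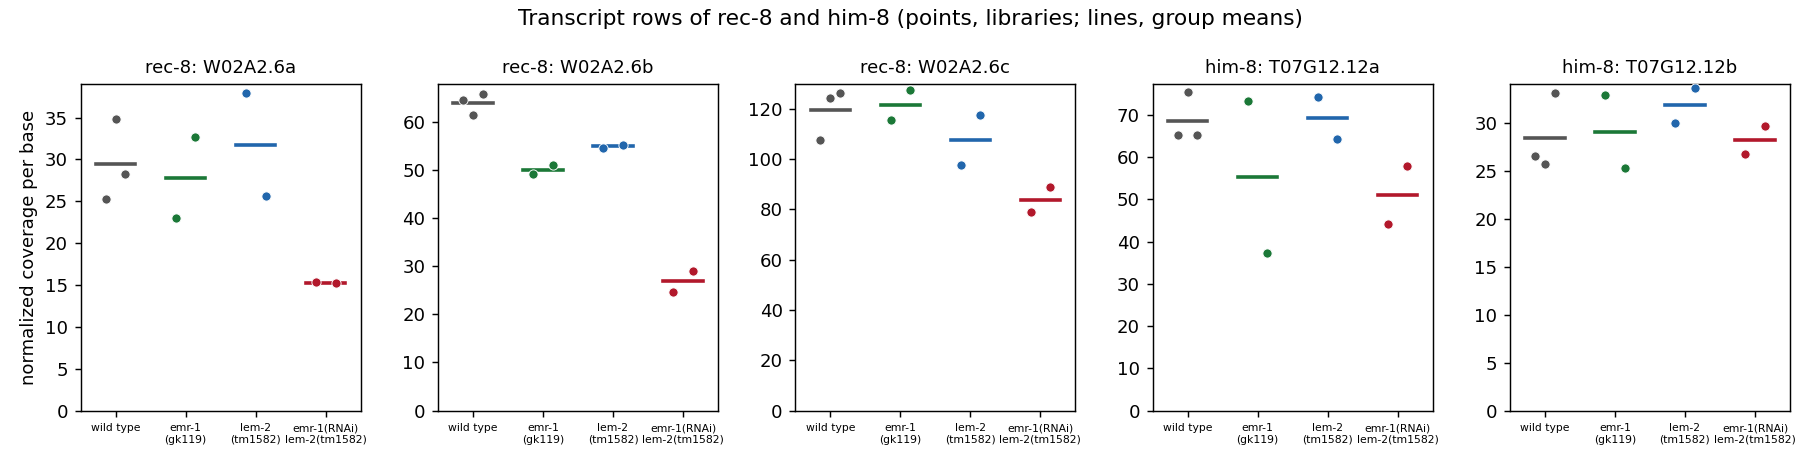
Normalized coverage per base (vertical axes, linear from 0) of the 3 transcripts of rec-8 and the 2 of him-8 in the 9 libraries. Points are libraries and lines are group means. Double libraries are below wild type in all rec-8 panels and in T07G12.12a, and among wild type in T07G12.12b.

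SYP-1, SYP-2 and SYP-3 are coiled-coil proteins of the central region of the synaptonemal complex and depend on each other for assembly. syp-1 (F26D2.2) lies on the plus strand of chromosome V at 16404274 to 16407701, has 6 exons and shares 1075 bases with F13A7.14 on the same strand, so reads could be split between them. Coverage of syp-1 was 39.0, 41.9 and 30.6 in wild type, 41.5 and 30.5 in emr-1(gk119) worms, 33.3 and 41.7 in lem-2(tm1582) worms, and 19.6 and 23.9 in the double libraries. The double libraries were below all others, and the remaining 7 overlapped. By limma the log2 change was -0.74 ± 0.22 (Benjamini-Hochberg adjusted p = 0.0320), or 58.5% of the wild-type mean. This call was the least stable of the 4, with adjusted p from 0.00585 to 0.174 over 19 alternative settings and 14 of them past the threshold. It was lost when either double library or wild-type replicate 1 or 2 was left out.

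syp-2 (C24G6.1) lies on the plus strand of chromosome V at 5536487 to 5537717 and has 4 exons. Coverage was 62.3, 68.0 and 91.6 in wild type, 70.7 and 52.4 in emr-1(gk119) worms, 74.9 and 61.3 in lem-2(tm1582) worms, and 27.4 and 39.8 in the double libraries. Again the double libraries were below all others without overlap. By limma the log2 change was -1.12 ± 0.25 (Benjamini-Hochberg adjusted p = 0.0112), or 45.4% of the wild-type mean. It was called in 18 of 19 alternative settings and lost without double replicate 1 (limma, Benjamini-Hochberg adjusted p = 0.0925).

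syp-3 (F39H2.4), on the minus strand of chromosome I at 8663045 to 8664445, overlaps mrt-1 on the other strand by 61 bases. Coverage was 25.3, 26.8 and 36.8 in wild type, 44.6 and 20.1 in emr-1(gk119) worms, 26.7 and 38.0 in lem-2(tm1582) worms, and 32.3 and 26.2 in the double libraries. All groups overlapped. The log2 change in the double libraries was -0.01 ± 0.35 (limma, Benjamini-Hochberg adjusted p = 1.00), with a 95% interval from -0.82 to 0.81 that includes the change of syp-1 and not that of syp-2. Within libraries the ratio of syp-2 to syp-3 was 2.46, 2.54 and 2.49 in wild type, 1.59 and 2.61 in emr-1(gk119) worms, 2.80 and 1.61 in lem-2(tm1582) worms, and 0.849 and 1.52 in the double libraries. It was nearly constant in wild type, and both double libraries were below every other library. How many other gene pairs do so was not counted. For syp-1 to syp-3 the ratio was 0.833 to 1.56 in wild type and 0.607 and 0.911 in the double libraries, which overlap. The ratio of syp-1 to syp-2 was 0.335 to 0.626 in wild type and 0.715 and 0.600 in the double libraries, which overlap.

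HIM-8 is a zinc finger protein that binds the pairing center of the X chromosome. Its gene, T07G12.12, lies on the plus strand of chromosome IV at 10561905 to 10563974. Coverage was 45.9, 50.7 and 49.2 in wild type, 53.1 and 31.3 in emr-1(gk119) worms, 52.2 and 49.1 in lem-2(tm1582) worms, and 35.6 and 43.9 in the double libraries. The double libraries were below wild type and lem-2(tm1582) by a small margin, and emr-1(gk119) replicate 2 was the lowest of all. No change was called, at -0.29 ± 0.23 in the double libraries (limma, Benjamini-Hochberg adjusted p = 0.341). The table holds 2 transcripts, of which T07G12.12a had 65.3, 75.5 and 65.2 in wild type and 44.3 and 58.0 in the double libraries, and T07G12.12b had 26.6, 25.8 and 33.1 against 26.8 and 29.7. The first was below wild type in both double libraries and the second was within its range, and neither was called in the fit over transcripts, also added after the data were seen (limma, Benjamini-Hochberg adjusted p = 0.252 and 0.997).

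SPO-11 is the topoisomerase-like enzyme that cuts DNA to start recombination. Its gene, T05E11.4, on the minus strand of chromosome IV at 11123133 to 11124862, overlaps enpl-1 on the other strand by 23 bases. Coverage was 50.9, 78.9 and 58.6 in wild type, 65.3 and 42.3 in emr-1(gk119) worms, 81.8 and 76.0 in lem-2(tm1582) worms, and 57.7 and 57.1 in the double libraries. The double libraries lay inside the wild-type range and below lem-2(tm1582). By limma the log2 change was -0.10 ± 0.24 in the double libraries (Benjamini-Hochberg adjusted p = 0.763) and 0.35 ± 0.24 in lem-2(tm1582) (0.539).

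MSH-5 works with its partner HIM-14 (MSH-4) to stabilize recombination intermediates that become crossovers. Its gene, F09E8.3, lies on the plus strand of chromosome IV at 13155233 to 13164054 and was the least covered of the 10. Coverage was 10.2, 17.4 and 13.2 in wild type, 14.1 and 7.94 in emr-1(gk119) worms, 11.4 and 14.9 in lem-2(tm1582) worms, and 7.44 and 9.86 in the double libraries. The double libraries were just below wild type, by less than the spread of wild type itself. The log2 change was -0.58 ± 0.32 and was not called (limma, Benjamini-Hochberg adjusted p = 0.185). With quantile normalization repeated on loci it was called, the single setting of 19 in which it was (limma, Benjamini-Hochberg adjusted p = 0.0187).

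In emr-1(gk119), 0 of the 10 genes were called, beside 6.27% of all loci called lower and 10.4% higher. At an unadjusted limma p under 0.05 there was 1 (htp-3), and the median log2 change of the 10 was -0.24 beside 0.01 over all loci. Both emr-1(gk119) libraries were below all wild-type libraries for htp-3 alone, as for 19.5% of all loci, and above them for htp-1 alone, as for 22.2%. The 2 replicates disagreed for this gene group: replicate 2 was below replicate 1 by a median of 0.52 on the log2 scale, a larger step than the 0.02 to 0.22 between any other pair of replicates. Leaving out replicate 1 gave 1 call, him-3, and leaving out either lem-2(tm1582) library gave htp-3.

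In lem-2(tm1582), 0 of the 10 genes were called and 0 had an unadjusted limma p under 0.05, in a comparison with few calls anywhere (0.0102% of all loci lower, 0.0358% higher). The median log2 change was -0.01 beside 0.06 over all loci. htp-3 was the single gene with both libraries below all of wild type, as for 12.0% of all loci.

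Double libraries were also compared with those of lem-2(tm1582), the allele that both carry by their labels. Here 2 of the 10 were called lower, syp-2 by -1.01 ± 0.27 (limma, Benjamini-Hochberg adjusted p = 0.0443) and rec-8 by -0.61 ± 0.15 (0.0323), beside 6.27% of all loci lower and 10.2% higher. syp-1 had a change of -0.76 ± 0.24 and missed the threshold (limma, Benjamini-Hochberg adjusted p = 0.0694). In 7 of the 10 both double libraries were below both lem-2(tm1582) libraries (him-3, syp-1, syp-2, rec-8, spo-11, msh-5 and him-8), as for 21.8% of all loci. Both calls were lost when wild-type replicate 1, either lem-2(tm1582) library or either double library was left out, and without wild-type replicate 2 rec-8 alone was called. All loci lost calls as well, from 1227 lower and 1994 higher to 0 and 0 without lem-2(tm1582) replicate 2, 0 and 4 without double replicate 1, 316 and 362 without lem-2(tm1582) replicate 1, and 542 and 499 without double replicate 2. For htp-3 the change was -0.85 ± 0.46 (limma, Benjamini-Hochberg adjusted p = 0.241).

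Against emr-1(gk119), 1 of the 10 was called lower in the double libraries, rec-8 by -0.65 ± 0.15 (limma, Benjamini-Hochberg adjusted p = 0.0384), beside 2.53% of all loci lower and 7.14% higher. Both double libraries were below both emr-1(gk119) libraries for htp-1, syp-1, syp-2 and rec-8, as for 16.1% of all loci. The rec-8 call was lost in 7 of the 9 settings that leave out 1 library, all but those without wild-type replicate 3 or emr-1(gk119) replicate 1. For htp-3 the change was -0.28 ± 0.46 (limma, Benjamini-Hochberg adjusted p = 0.739).

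The interaction term compares the step made by emr-1 RNAi in lem-2(tm1582) animals with the step made by the emr-1 deletion in wild type. None of the 10 was called in limma (0 of 10), and 1, rec-8, had an unadjusted p under 0.05, at -0.52 ± 0.20 (limma, Benjamini-Hochberg adjusted p = 0.219). Of all loci, 0.184% were called lower and 0.261% higher. The values of syp-1 (-0.71 ± 0.32) and syp-2 (-0.76 ± 0.37) were negative and that of htp-3 positive (0.61 ± 0.63). Thus a difference between double and single mutants beyond the sum of both was not detected for any of these genes, and their intervals are wide.

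Other genes of the same processes were read from a list of 51 names, of which 50 were found in the table and passed the minimum. In the double libraries 34 of the 50 were called lower, 1 higher and 15 not, with a median log2 change of -0.95, beside 12.0% of all loci lower and 26.4% higher. By process, 6 of 8 axis and cohesin genes were lower, 4 of 5 synaptonemal complex genes, 6 of 9 pairing genes, 6 of 10 genes of double-strand breaks and 12 of 18 of strand exchange and crossovers. Without double replicate 1 the count of 34 fell to 15. No gene of the list was called in lem-2(tm1582) (0 of 50), and in emr-1(gk119) 3 were lower and 1 higher, with a median of -0.41. The 3 are 6.0% of the list, close to the 6.27% of all loci called lower in that comparison, and 10.4% of all loci were called higher. The 3 became 0 when wild-type replicate 1 or 3, emr-1(gk119) replicate 2 or either lem-2(tm1582) library was left out, and 1 without wild-type replicate 2. Against lem-2(tm1582), in the double libraries 16 of 50 were lower and 0 higher, beside 6.27% and 10.2% of all loci, a count that became 0 to 6 when a library of either group was left out.

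The largest falls among them were in pch-2, the ATPase that remodels HORMA-domain proteins, xnd-1, a chromatin factor that shapes where breaks and crossovers form, zhp-3, a RING finger protein of crossover sites, and smc-3, a core cohesin subunit. Coverage of pch-2 was 87.8, 75.9 and 134 in wild type, 47.2 and 37.9 in emr-1(gk119) worms, 52.3 and 58.7 in lem-2(tm1582) worms, and 17.0 and 32.1 in the double libraries. Like htp-3, it was below wild type in every mutant library, a pattern not counted over all loci. Its log2 changes were -1.17 ± 0.32 in emr-1(gk119) (limma, Benjamini-Hochberg adjusted p = 0.0473) and -1.99 ± 0.32 in the double libraries (0.00360). For xnd-1 the values were 62.2, 66.2 and 52.3 in wild type and 15.9 and 13.5 in the double libraries, a change of -1.96 ± 0.19 (limma, Benjamini-Hochberg adjusted p = 0.000853). For zhp-3 the double change was -1.62 ± 0.34 (limma, Benjamini-Hochberg adjusted p = 0.00877) and for smc-3 -1.56 ± 0.16 (0.00111). In emr-1(gk119) the other falls were hal-3, whose product keeps SYP proteins from loading on unpaired chromosomes, at -0.93 ± 0.21 (limma, Benjamini-Hochberg adjusted p = 0.0258), and skr-2 at -0.66 ± 0.17 (0.0392). The single rise was skr-1, which encodes a ubiquitin ligase subunit that also serves the synaptonemal complex, at 0.47 ± 0.13 in emr-1(gk119) (limma, Benjamini-Hochberg adjusted p = 0.0431) and 0.41 ± 0.13 in the double libraries (0.0358). skr-1 and skr-2 are neighbouring, near-identical paralogs that moved in opposite directions, and how their shared reads were placed is not stated.

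**Figure D4:**
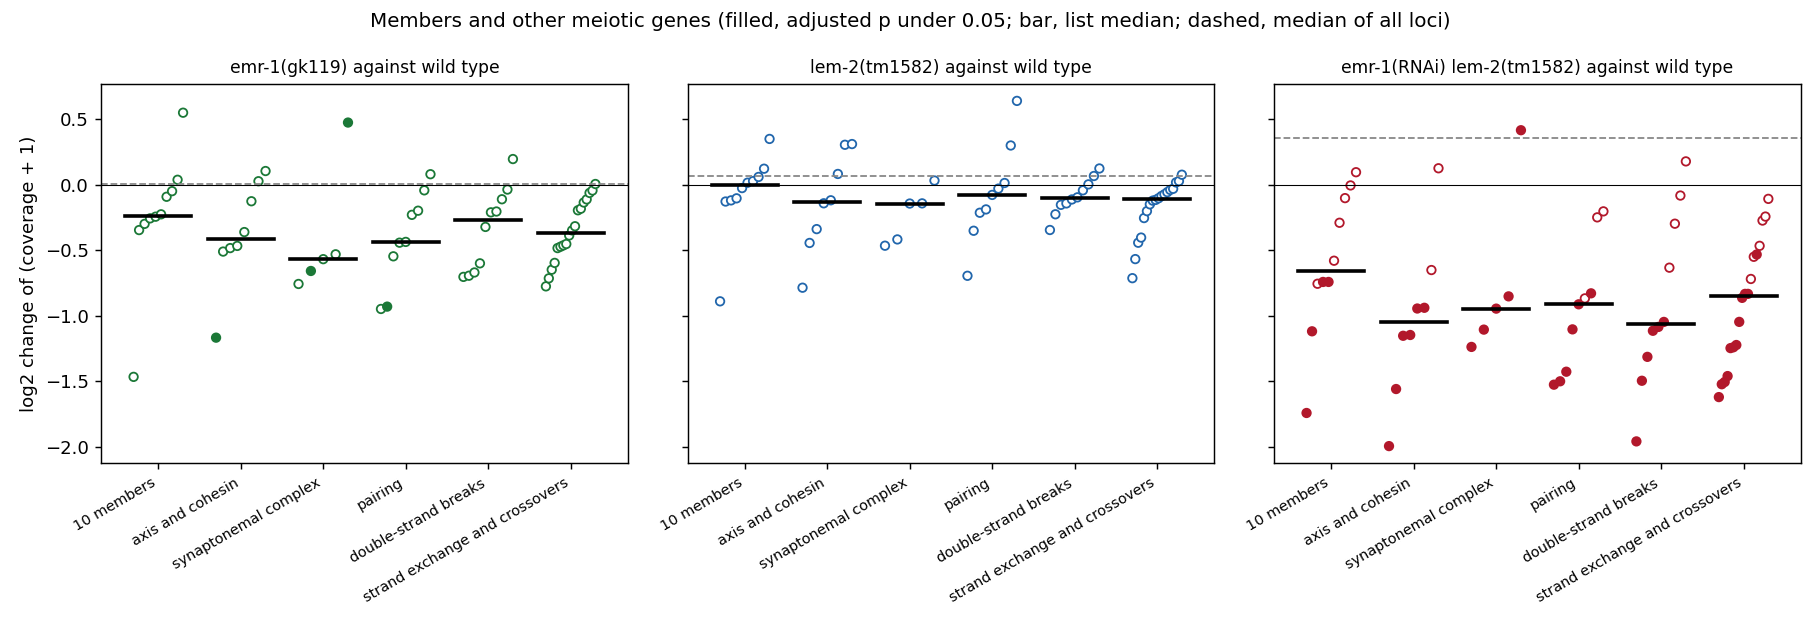
Change of log2(coverage + 1) against wild type (vertical axis) for the 10 genes and 50 other meiotic genes by process, in the 3 comparisons with wild type. Each point is a gene, filled where the adjusted p is under 0.05, bars are list medians and dashed lines the median of all loci. In the double panel 34 of the 50 are filled and below 0 and 1 is filled and above 0.

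Sums of germ cell and oocyte markers were below wild type in the double libraries and also in emr-1(gk119), where 0 of the 10 genes were called. Sums of sperm markers, also of the germ line, were above wild type in every mutant group. Summed coverage of 12 germ cell markers, such as glp-1, pgl-1 and glh-1, was 683 to 785 in wild type and 433 to 492 in emr-1(gk119) worms. It was 609 to 792 in lem-2(tm1582) worms and 281 to 307 in the double libraries. Called lower were 7 of the 12 in the emr-1 deletion, 0 in the lem-2 mutant and 8 in the double libraries. Of all loci, 6.27%, 0.0102% and 12.0% were called lower in these comparisons with wild type. Summed coverage of 11 oocyte markers, such as oma-1, rme-2 and puf-5, was 4589 to 5142, 1947 to 2341, 3038 to 4063 and 846 to 949 in the same order, and 10 of 11 were called lower in both emr-1(gk119) and the double libraries. Sums over 10 sperm markers were 231 to 287, 406 to 417, 448 to 465 and 295 to 347 in that order, so those of both single mutants were above the double libraries. In the double libraries 2 of 10 were called higher, less than the share of all loci called higher (26.4%). Over 8 body muscle markers they were 936 to 1376, 1292 to 1759, 2170 to 2234 and 2047 to 2241, about as high in lem-2(tm1582) as in the double libraries (5 called higher in the latter). Of 8 markers each, 1 intestinal marker was called higher, 6 epidermal markers higher and 2 lower, and 4 neuronal markers higher and 1 lower in the double libraries. Of all loci, 26.4% were called higher and 12.0% lower there, and the intestinal count was under the share called higher. Every marker had a mean coverage of at least 1 over the 9 libraries, and no cell type was called from these lists. The part of a smaller germ line, or of animals at another stage, in the changes of the 10 genes was not tested.

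The sum over the 10 genes was 489 to 622 in wild type, 476 to 623 in emr-1(gk119) worms, 550 to 565 in lem-2(tm1582) worms and 393 to 431 in the double libraries. Double libraries were below all others, at 0.718 of the wild-type mean, beside 0.392 for the germ cell markers and 0.182 for the oocyte markers. The largest part of this sum was htp-1, at a mean of 120 in wild type and 122 in the double libraries. Its level is uncertain because of its paralog htp-2, a limit that also holds for the ratio that follows. Per unit of germ cell marker coverage the sum was 0.623, 0.779 and 0.910 in wild type, 1.44 and 0.968 in emr-1(gk119) worms, 0.928 and 0.695 in lem-2(tm1582) worms, and 1.40 and 1.40 in the double libraries. The double libraries were thus above wild type in this ratio, as were both emr-1(gk119) libraries.

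**Figure D5:**
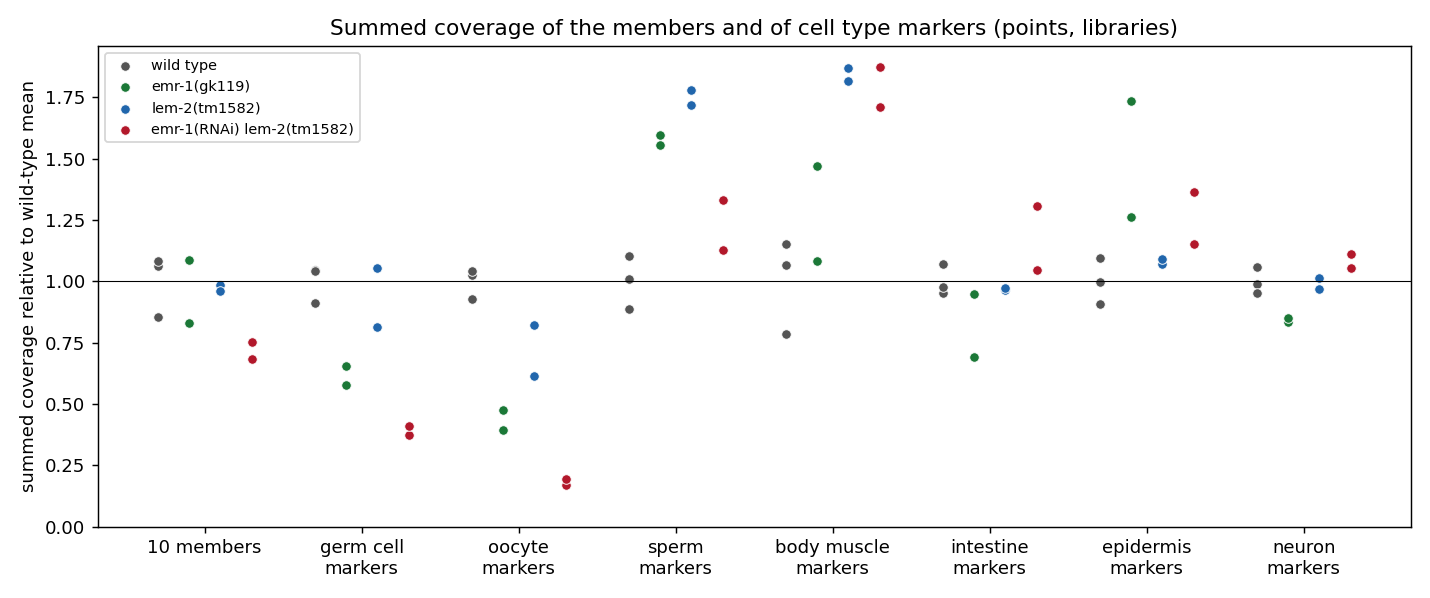
Summed coverage of the 10 genes and of 7 marker lists in each library, relative to the wild-type mean (vertical axis, linear from 0). Points are libraries, coloured by genotype, and the line marks the wild-type mean. Double libraries stand near 0.718 for the 10 genes, 0.392 for germ cell markers and 0.182 for oocyte markers.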

How the data were processed

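Genotypes were taken from the sample labels. The authors mapped reads of poly(A) libraries, made without strand information, to WS231 with TopHat, and deposited signal values, namely the coverage of each transcript as the median over exons of exon median coverage, quantile-normalized over exons. Which libraries shared a sequencing lane is not given in the sources used here. These values are not counts, and no depth or counting interval could be given. Transcripts of a locus were averaged, and 42823 of 43898 loci (97.6%) were matched to names in a RefSeq table. Positions and overlaps come from the Ensembl annotation of WBcel235, another release than the one used for mapping. Loci whose mean coverage reached 1 entered a linear model of log2(coverage + 1), fitted by limma (version 3.58.1, R version 4.3.3) to the 9 libraries together with a mean-variance trend, and the script was tested on simulated data. Fold changes on this scale understate those of low genes. The study's own method, SAM, was not used here.

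The 10 genes and all lists were chosen with earlier results of these data known. Named are all 10 genes, of the other meiotic genes up to 4 called rises and 4 called falls per comparison with wild type, and htp-2 as the paralog of htp-1. Alternatives were 2 pseudocounts, 2 coverage minimums, the highest transcript per locus, only compared groups, no trend, a replicate block, 2 rescalings, and each library left out.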

Additional observations from a re-analysis of the deposited data

How the results depend on the processing

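Over 19 alternatives none of the 10 genes was called higher in any comparison, and rec-8 stayed called in the double libraries against wild type. That comparison gave 4 calls, 2 without a coverage minimum, 5 with a minimum of 5, only the compared groups or median scaling, 6 with repeated quantile normalization, and 1 to 5 with 1 library left out. For emr-1(gk119) against wild type the count of 0 became 1 with a pseudocount of 5, a minimum of 5, only the compared groups, repeated quantile normalization or median scaling, and was 0 to 1 with a library left out. For the double libraries against lem-2(tm1582) the 2 calls became 1 with a pseudocount of 0.1, no minimum, the highest transcript per locus or no trend, 0 with only the compared groups, 3 with repeated quantile normalization or median scaling, and 0 to 3 with a library left out. Against emr-1(gk119) the 1 call became 0 with the highest transcript, only the compared groups or no trend, 3 with repeated quantile normalization, 2 with median scaling, and 0 to 1 with a library left out. With lem-2(tm1582) against wild type and the interaction the count stayed at 0. For the interaction, a fit of only the compared groups does not exist apart from the full one.

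No shared effect of replicate number was seen: over 12 pairs with the same number, deviations from group means had correlations from -0.13 to 0.06. In groups of 2 libraries the deviations mirror each other, so these values are not all separate. The check cannot show that there is no pairing. With the number as a block, calls were 4 in the double libraries against wild type, 1 against lem-2(tm1582) animals and 0 against the emr-1 deletion. Of 60 values, 28 that were not called changed sign in at least 1 setting. Median scaling moved the all-locus median in the double libraries from 0.35 to 0.21 (4155 higher, 2959 lower) and that of the 10 genes to -0.83. Over the same alternatives, apart from those that leave out a library, 266 to 1605 loci were called lower in emr-1(gk119) (1226 as reported). The ranges were 1766 to 3511 in the double libraries (2353), 556 to 1909 in these against lem-2(tm1582) (1227), and 0 to 994 against emr-1(gk119) (495). In the same order, those called higher ranged from 570 to 2063 (2025), 3182 to 5452 (5164), 952 to 2533 (1994) and 0 to 1776 (1396). In lem-2(tm1582) 0 to 93 loci were called higher and 1 to 22 lower, and in the interaction 4 to 280 and 10 to 126. Of the other 50 meiotic genes, 25 to 41 were lower in the double libraries (34), and 0 to 5 in emr-1(gk119) (3). These counts also changed when 1 library was left out. A lone library in a group is assumed to vary like the other groups. The causes were not tested.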

Other observations

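Of 8017 loci outside the lists and with mean coverage from 20 up, the 5 whose profile over the 9 libraries was most like the mean standardized profile of the 10 genes were H35B03.2 (Pearson r = 0.97), C29A12.1 (0.96), smu-1 (0.96), flh-1 (0.96) and top-1 (0.95). They were picked as the highest of many, from libraries that share genotype and normalization, so the values are a description and carry no test.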
